A study of Mus musculus with 1931 samples.

Results

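Gata6, Gata4, Sox17, Sox7, Foxa2 and Hnf4a, a set of 6 endoderm transcription factors, were followed through single-cell RNA-sequencing of mouse embryo-like structures and of the flat cultures made from the same kinds of cells. The 6 genes were taken by name from the 20999 genes of the deposited table, and all 6 were in it. In the structures, called RtL-embryoids, Kermit ESCs (embryonic stem cells with an Oct3/4-GFP reporter) were aggregated with 5-Factor ESCs, which carry doxycycline-inducible Cdx2, Tfap2c, Eomes, Gata3 and Ets2, and with mCherry-transduced iGATA6 ESCs, which carry an inducible Gata6 transgene from the lentiviral vector pCW57.1_Gata6. Doxycycline (DOX) was given at 2 µg/ml to the aggregates and to the reprogrammed 2D cultures, and was withdrawn before harvest. Cells of the structures were sorted as mCherry+, GFP+ or CD40+ cells into the wells of plates, and those wells were compared with 2D iXEN (iGATA6 ESCs reprogrammed to extraembryonic endoderm, sorted by mCherry), 2D iTSC (5-Factor ESCs reprogrammed to trophoblast stem cells, sorted by CD40) and 2D ESC (GFP-sorted Kermit ESCs in 2i/LIF, without DOX).

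The labels gave the wells of the structures by plate, row and column, not by lineage. Columns 1 to 8 are called Epi wells here, columns 9 to 16 VE wells (visceral endoderm-like) and columns 17 to 24 ExE wells (extraembryonic ectoderm-like). The blocks lay on plates 3, 4 and 5, and 1 pool of structures filled the 3 plates, so that the plates are technical splits of 1 sample and each 2D culture is 1 sample. No p-value is given for any difference, and the range over plates is the only spread available. Of 1931 wells, 1406 with at least 2500 genes above 0 were kept, among them 82.2% of the VE wells, 91.9% of the ExE wells, 82.2% of the Epi wells, 77.5% of iXEN, 49.8% of iTSC and 44.8% of ESC. Median numbers of genes per cell were 5348, 5396 and 4823 in the VE, ExE and Epi wells and 8699, 8537 and 9093.5 in iXEN, iTSC and ESC, so the 2D cells were sequenced to more genes. Read depth itself is not held in TPM values. Levels are given as TP10k, the TPM of a gene per 10000 units of the cell's own total, with zeros included in means, and a gene is called found in a cell where it was above 0. Intervals are exact 95% binomial intervals, and the limit given for a gene found in no cell is that of 3 counts in the group; both cover counting error only. No 2 kept cells had identical columns.

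Primitive endoderm is the layer that the inner cell mass sets aside before implantation, and visceral endoderm is the epithelium it forms around the later epiblast. Gata6 acts at the top of this choice against Nanog and the pluripotency programme, and Gata4, Sox17 and Sox7 follow in committed primitive endoderm. Foxa2 and Hnf4a are used by visceral endoderm, where Hnf4a is needed for the genes of secreted carriers, and later by definitive endoderm and liver.

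The block names were compared with marker genes that are not among the 6 factors. The naming was known together with earlier results of these data in which Gata4 and Sox17 marked the VE wells, so this check is not independent of them. All 8 visceral endoderm markers (Amn, Cubn, Dab2, Lrp2, Dkk1, Pdgfra, Lama1 and Srgn) were found in over 50% of VE wells and of iXEN cells. Their summed level averaged 51.9 TP10k in VE wells and 46 TP10k in iXEN, against 3.43 TP10k in ExE wells and 0.0986 TP10k in Epi wells. Of 8 epiblast markers, 3 were also found in over 50% of VE wells, Dppa5a in 99.4%, Pou5f1 (OCT4) in 90.8% and Utf1 in 81.3%, while Tdgf1 was found in 0.952% and Fgf4 in 0.317% of them. The summed epiblast panel averaged 77.2 TP10k in VE wells, against 274.9 TP10k in Epi wells. The 8 fibroblast markers summed to between 0.0159 and 0.0478 TP10k in the 6 groups.

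Some wells went against their block, in that another lineage's panel had more markers found than their own. There were 4 such VE wells, 69 ExE wells, 17 iTSC cells and none among Epi wells, iXEN and ESC. Of the 69 ExE wells, 47 had more visceral endoderm markers and 22 more epiblast markers. The overall share of each factor in ExE wells is therefore given with and without these wells.

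**Figure D1:**
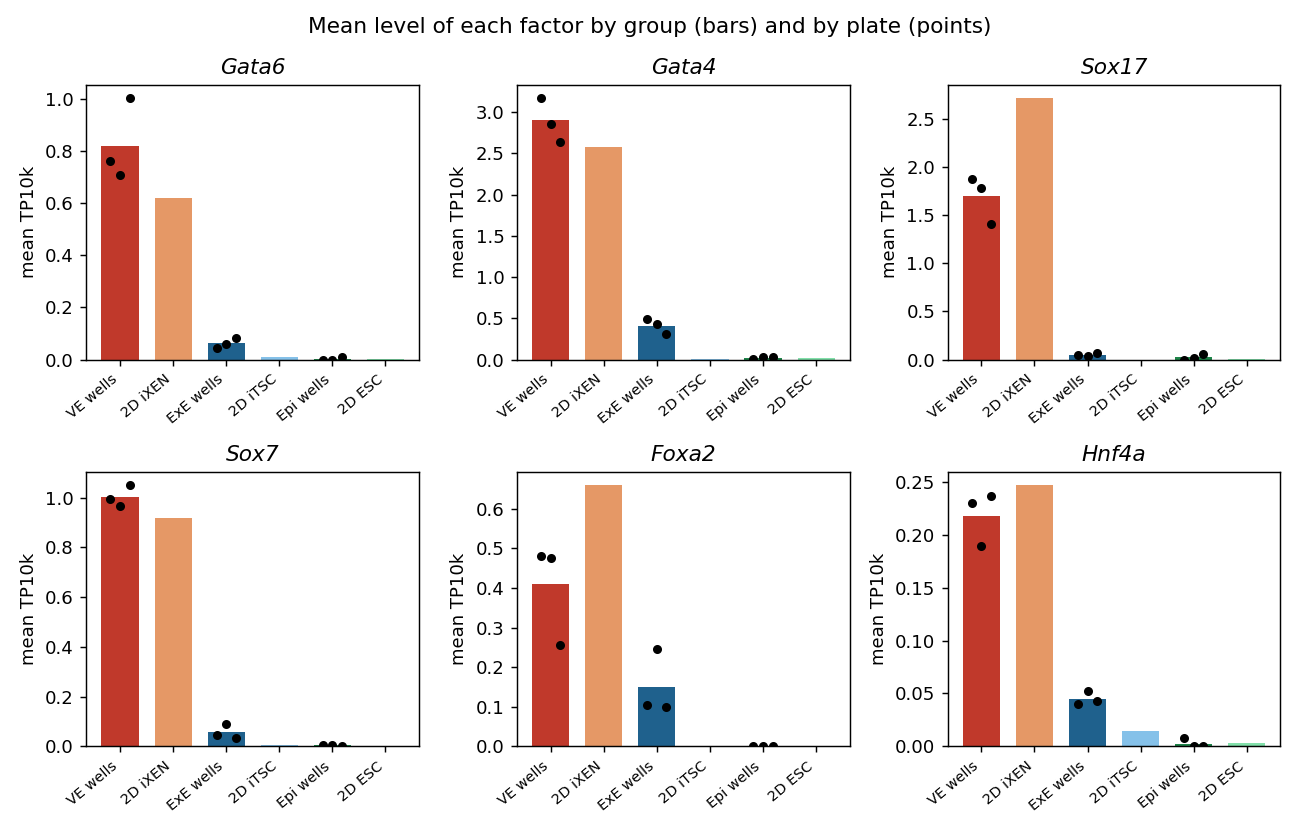
Mean level in TP10k (y axis, linear from 0) of each factor in the 6 groups (x axis), with 1 panel per gene; bars are means over all cells, and black points are the means of plates 3, 4 and 5, from left to right. The VE wells and 2D iXEN stand above the other groups in each panel, and Gata4 (0.412 TP10k) and Foxa2 (0.15 TP10k) are also seen in ExE wells.

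Gata6, the zinc-finger factor that the iGATA6 line carries as a transgene, lies at chr18:11052064-11085635 on the plus strand of GRCm38. The values do not tell transcripts of the transgene from those of the endogenous gene. In VE wells Gata6 was found in 89.8% of cells (interval 86 to 92.9%), with a mean of 0.818 TP10k. On plates 3, 4 and 5 the mean was 0.763, 0.707 and 1.0 TP10k, and over cells it ran from 0 to 4.33 TP10k with a median of 0.655 TP10k. In iXEN it was found in 97.9% of cells at 0.621 TP10k, which is below each of the 3 plates. In ExE wells it was found in 15.3% of cells at 0.0618 TP10k, and in 13.7% at 0.0509 TP10k without the 69 wells. It was found in 14.9% of iTSC cells at 0.0114 TP10k, in 0.637% of Epi wells (2 cells) at 0.00272 TP10k and in 1.41% of ESC (2 cells) at 5.95e-04 TP10k. Gata6 was therefore nearly absent from both pluripotent groups, and ExE wells and iTSC held it in a similar, low share of cells, with a mean higher by 0.0504 TP10k in ExE wells (plates 0.0323 to 0.0722, and 0.0159 to 0.0605 without the wells that went against their block).

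Gata4, the close relative of Gata6, lies at chr14:63198922-63271692 on the minus strand and was the most abundant of the 6 factors in VE wells. It was found in 98.1% of VE wells (95.9 to 99.3%) at 2.90 TP10k. The plates gave 3.17, 2.85 and 2.64 TP10k, and cells ran from 0 to 9.67 TP10k with a median of 2.81 TP10k. In iXEN it was found in 99.3% of cells at 2.58 TP10k. In ExE wells it was found in 38.2% of cells (33.1 to 43.5%) at 0.412 TP10k, with 52.5%, 31.6% and 29.8% on plates 3, 4 and 5. Without the 69 wells the share was 38% and the mean 0.350 TP10k. Gata4 was found in 10.6% of iTSC cells at 0.0107 TP10k, 15.5% of ESC at 0.0166 TP10k and 3.82% of Epi wells at 0.0246 TP10k. The mean of the ExE wells thus lay 0.401 TP10k above that of iTSC (plates 0.294 to 0.486, and 0.236 to 0.442 without the wells that went against their block).

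Sox17 and Sox7 are related HMG-box factors of the SoxF group, at chr1:4490931-4497354 on the minus strand and chr14:63943673-63950732 on the plus strand. Sox17 was found in 86.7% of VE wells (82.4 to 90.2%) at 1.70 TP10k, with plate means of 1.87, 1.78 and 1.41 TP10k and single cells of up to 8.29 TP10k. In iXEN it was higher, at 2.71 TP10k in 93.6% of cells, with a median of 1.90 TP10k and a highest cell of 16 TP10k. In the other groups it was found in 3.97% of ExE wells, 0.709% of iTSC, 1.27% of Epi wells and 4.23% of ESC. Without the 69 wells, a single ExE well (0.352%) had Sox17. Sox7 was found in 87.3% of VE wells (83.1 to 90.8%) at 1.0 TP10k and in 97.2% of iXEN cells at 0.920 TP10k, and its plate means were 0.994, 0.967 and 1.05 TP10k. It was found in 7.93% of ExE wells, and in 3.52% without the 69 wells.

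Foxa2, a forkhead factor at chr2:148042877-148046969 on the minus strand, and Hnf4a, a nuclear receptor at chr2:163506808-163572910 on the plus strand, were the 2 factors found in the fewest VE wells. Foxa2 was found in 56.5% of VE wells (50.8 to 62.1%) at 0.410 TP10k. Its share was 73.9%, 49.5% and 44.3% on plates 3, 4 and 5 and its mean 0.481, 0.476 and 0.257 TP10k, so that plate 3 stood apart in share and plate 5 in level. In iXEN it was found in 96.5% of cells (91.9 to 98.8%) at 0.661 TP10k. ExE wells held Foxa2 in 11.3% of cells at 0.150 TP10k, and in 5.28% at 0.0502 TP10k without the 69 wells. Foxa2 was listed at 0 in every ESC kept, which allows a share of up to 2.11% (3 counts), and was found in 1 Epi well (0.318%). Hnf4a was found in 54.6% of VE wells (48.9 to 60.2%) at 0.218 TP10k, with shares of 72.1%, 42.1% and 48.5% and means of 0.230, 0.189 and 0.236 TP10k on plates 3, 4 and 5, and in 78.7% of iXEN cells at 0.247 TP10k. In ExE wells it was found in 9.35% of cells, and in 3.17% without the 69 wells. Among iTSC, Hnf4a was found in 3 cells, and its mean of 0.0146 TP10k became 7.25e-05 TP10k without the 17 wells that went against their culture.

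Sequence upstream of a start site was on hand for Hnf4a and Foxa2, the pair of factors found in the fewest VE wells. The RefSeq promoter table (GRCm38.p6) holds 5 starts for these 2 genes, and up to 250 bases before a start were read from it, stopping at the first annotated coding-transcript exon. Where a GATA word, as defined below, ran across the start of that exon, the window was kept to the end of the word. The TPM of a gene are summed over its starts, so the values do not show which start was used. Each window was searched on both strands for GATA words, which GATA factors are known to bind, here GATAA or GATAG after an A or a T, and capitals below mark each match. The 2 windows that held a match are shown, the upstream Hnf4a start at chr2:163506607-163506810 (plus strand) and an internal Foxa2 start at chr2:148045465-148045714 (minus strand).
Hnf4a upstream start: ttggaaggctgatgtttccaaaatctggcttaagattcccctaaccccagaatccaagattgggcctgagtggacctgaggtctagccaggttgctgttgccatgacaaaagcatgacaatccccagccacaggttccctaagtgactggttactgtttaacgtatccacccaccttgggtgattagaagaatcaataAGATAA
Foxa2 internal start: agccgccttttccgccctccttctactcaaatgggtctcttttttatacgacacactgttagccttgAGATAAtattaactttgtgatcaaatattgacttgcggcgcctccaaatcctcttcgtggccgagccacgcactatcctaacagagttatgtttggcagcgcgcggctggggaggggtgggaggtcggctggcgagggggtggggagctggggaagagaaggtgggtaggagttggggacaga

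The upstream Hnf4a window held 1 GATA word, 52 bases before the RefSeq start, and the internal Foxa2 window held 1 GATA word. The Hnf4a word ran across the annotated start of the gene at 163506808, as its window ends at 163506810. The other 3 windows, 1 of Hnf4a and 2 of Foxa2, held none. Among all 32851 windows of the table, 26.5% held a GATA word within 250 bases, and 23.4% held a GATA word in a window as short as that of the upstream Hnf4a start. Both shares were counted in windows of a fixed length, with no extension for a word. A match describes the letters only.

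**Figure D2:**
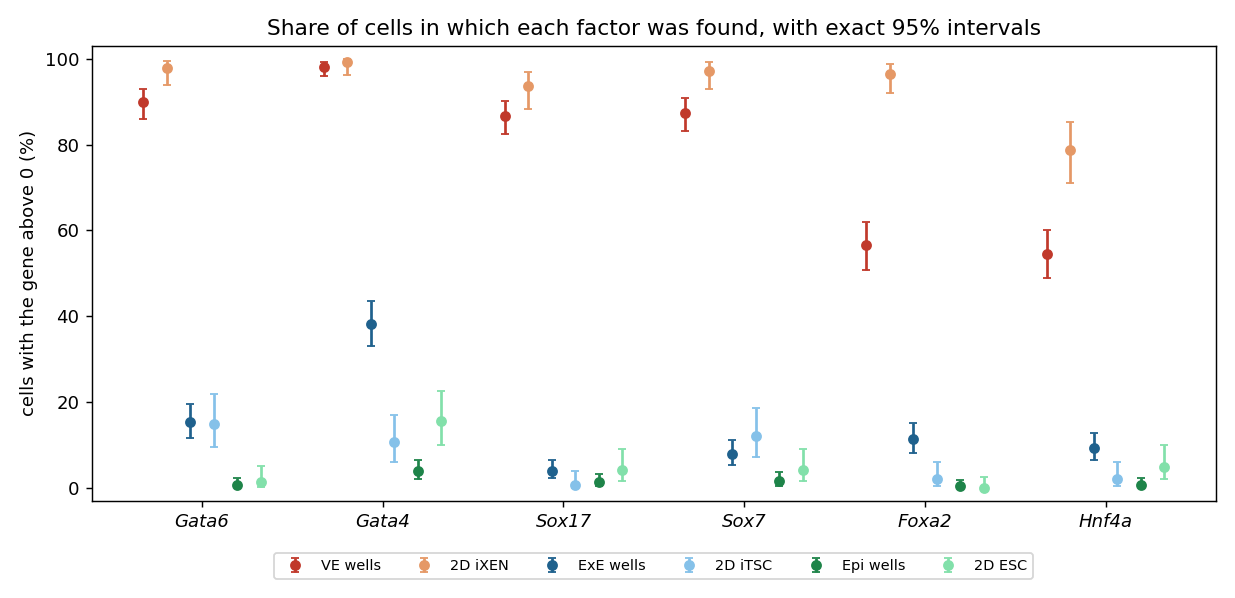
Share of cells (y axis, percent) in which each factor (x axis) was above 0, by group; points are shares and bars exact 95% intervals. Foxa2 and Hnf4a were found in 56.5% and 54.6% of VE wells, below the other 4 factors, and Gata4 was found in 38.2% of ExE wells.

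Since TPM are per length, the 6 factors can be ordered by level within a group. In VE wells the order of mean TP10k was Gata4, Sox17, Sox7, Gata6, Foxa2 and Hnf4a. The plate ranges of Gata4 (2.64 to 3.17 TP10k) and Sox17 (1.41 to 1.87 TP10k) overlapped with no other. Those of Sox7 (0.967 to 1.05 TP10k) and Gata6 (0.707 to 1.0 TP10k) overlapped, and those of Foxa2 (0.257 to 0.481 TP10k) and Hnf4a (0.189 to 0.236 TP10k) did not overlap. In iXEN Sox17 (2.71 TP10k) came before Gata4 (2.58 TP10k) and Foxa2 (0.661 TP10k) before Gata6 (0.621 TP10k), and with 1 culture these neighbours have no spread to be set against.

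The lineage difference was set against all genes. A gene was compared where it was found in at least 10% of cells of either group, and the fold was taken on mean TP10k + 0.05, which understates the change of low genes. All 6 factors were at least 4-fold higher in VE wells than in Epi wells, beside 2.88% of 10662 genes. The log2 folds were 5.30 for Gata4, 4.57 for Sox17, 4.28 for Sox7, 4.04 for Gata6, 3.20 for Foxa2 and 2.35 for Hnf4a, and their median was 4.16 against -0.05 over all genes. Within plates, Gata6 ran from 3.92 to 4.18 and Sox17 from 3.78 to 5.25. Gata4 stood 17th of all genes in the order of these folds.

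Against ExE wells, 4 of the 6 factors were at least 4-fold higher in VE wells, beside 1.38% of 10836 genes. Sox17 had a log2 fold of 4.14 and stood 8th of all genes, followed by Sox7 at 3.30, Gata6 at 2.96 and Gata4 at 2.67. Foxa2 (1.20) and Hnf4a (1.5) were below 4-fold. Without the wells that went against their block they reached 2.22 and 2.07, so that all 6 were then above 4-fold, Sox17 and Sox7 the most, at 4.99 and 4.22, beside 1.74% of 10893 genes at this setting. Gata4 then had 2.90 and Gata6 3.12. Most ExE wells left out had been set apart by their visceral endoderm markers, so leaving them out favours higher folds of endoderm genes.

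In 2D, all 6 factors were at least 4-fold higher in iXEN than in ESC, beside 452 of 13681 genes (3.3%), and all 6 were so over iTSC, beside 1.79% of 13450 genes. Over ESC the log2 folds were 5.51 for Sox17, 5.30 for Gata4, 4.27 for Sox7, 3.83 for Foxa2, 3.73 for Gata6 and 2.48 for Hnf4a. Over iTSC, Sox17 reached 5.78 and Hnf4a 2.20. Both 2D comparisons share the iXEN culture, as both 3D comparisons share the VE wells, and they are not independent of each other. In these cells a higher mean can come from more cells with the gene or from more transcripts per cell, and the shares above show that the number of cells with each factor differed.

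VE wells and iXEN, which derive from the same line, differed less. None of the 6 factors was 2-fold higher in VE wells, beside 1.51% of 12248 genes, and none was 2-fold lower, beside 2.38%. Sox17 was lower in VE wells by a log2 fold of -0.66 (plates -0.92 to -0.52) and Foxa2 by -0.63 (plates -1.21 to -0.42). Gata6 was higher by 0.37 (plates 0.17 to 0.65), Gata4 by 0.17 (plates 0.03 to 0.29) and Sox7 by 0.12 (plates 0.07 to 0.18), and Hnf4a was lower by -0.15 (plates -0.31 to -0.05). Every plate lay on the same side of the iXEN culture for each factor, but the spread of a second 2D culture is not known. Among cells with 5000 to 8500 genes, 56 of them iXEN, the Sox17 difference was -0.28 and the Foxa2 difference -0.52. In that band Foxa2 was found in 66.2% of VE wells and 92.9% of iXEN cells, and Hnf4a in 65.2% and 69.6%.

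**Figure D3:**
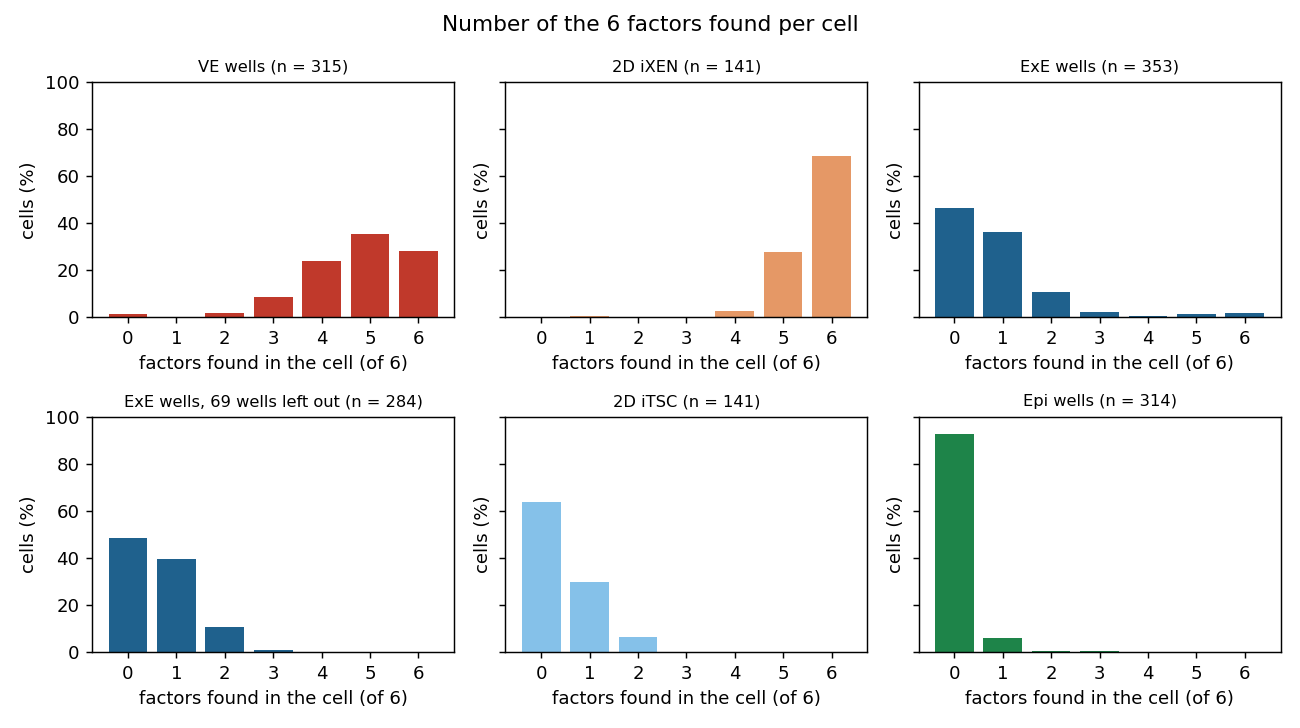
Percent of cells (y axis) by the number of the 6 factors found in the cell (x axis) in VE wells, iXEN, ExE wells with and without the wells that went against their block, iTSC and Epi wells; each panel title gives the number of cells. VE wells and iXEN lie at 4 to 6 factors, and the ExE cells with 4 to 6 factors are no longer seen once 69 wells are left out.

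The factors were then counted cell by cell. Of the VE wells, 89 (28.3%) held all 6 factors, 35.6% held 5, 75 wells held 4, 28 held 3, 6 held 2 and 5 held none. Of the iXEN cells, 97 (68.8%) held all 6, 39 held 5, 4 held 4 and 1 held 1. VE wells with all 6 factors had a median of 6293 genes and those with 3 a median of 4484, so the count moved with depth. The next most frequent combinations in VE wells were all but Hnf4a (55 cells), Gata6, Gata4, Sox17 and Sox7 alone (43 cells) and all but Foxa2 (40 cells). Of the 5 VE wells with none, 4 were the wells that went against their block.

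Gata6, Gata4 and Sox17 were found together in 79.7% of VE wells (74.8 to 84%) and in 92.2% of iXEN cells (86.5 to 96%). The share in VE wells was 64.8%, 82.9% and 91.4% in the lower, middle and upper tercile of cells by number of genes, and 89.4%, 93.6% and 93.6% in iXEN. From the lower to the upper tercile of VE wells Gata6 went from 0.847 to 0.743 TP10k and Sox7 from 0.995 to 1.02 TP10k, while their shares went from 82.9% to 94.3% and from 76.2% to 95.2%. Gata4 went from 2.73 to 3.17 TP10k with shares of 96.2% and 98.1%, and Sox17 from 1.53 to 1.96 TP10k with shares of 76.2% and 95.2%. Foxa2 was found in 38.1% of VE wells in the lower and 76.2% in the upper tercile, and Hnf4a in 35.2% and 75.2%.

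Of the VE wells with Gata6, 99.6% held Gata4, 89% Sox17, 89% Sox7, 58.3% Foxa2 and 55.1% Hnf4a. Of the 32 without Gata6, 84.4% held Gata4, 65.6% Sox17 and 71.9% Sox7, at a median of 4788.5 genes against 5445. Among the 28 of these that did not go against their block the shares were 96.4%, 75% and 82.1%. Gata4 was found in every VE well with Sox7, Foxa2 or Hnf4a. Foxa2 was found in 62.8% (55.1 to 70%) of wells with Hnf4a and in 49% (40.5 to 57.4%) of those without it. These intervals overlap, and the wells with Hnf4a had a median of 5880.5 genes against 4999.

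Correlations of ln(TP10k + 1) across cells were weak in VE wells. Over all VE wells, the largest in size among the 15 pairs were Gata6 with Gata4 (r = 0.19, plates 0.11 to 0.27), Foxa2 with Sox17 (0.18, plates 0.01 to 0.23), Hnf4a with Sox17 (-0.18, plates -0.22 to -0.14) and Hnf4a with Gata6 (-0.16, plates -0.27 to -0.05), and the number of genes in a cell reached 0.17 with Gata4. They are given as values only. In the deeper iXEN cells Gata6 had r = 0.43 with Sox17, 0.36 with Sox7 and 0.31 with Gata4, and Hnf4a had r = -0.41 with Gata6 and -0.27 with Sox17, beside r = 0.20 between Gata6 and the number of genes. Hnf4a was on the negative side with Gata6 and with Sox17 in both groups, while Gata6 with Sox17 was 0.03 in VE wells. The cells of a group share 1 pool or culture and their totals, and these r carry no test.

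**Figure D4:**
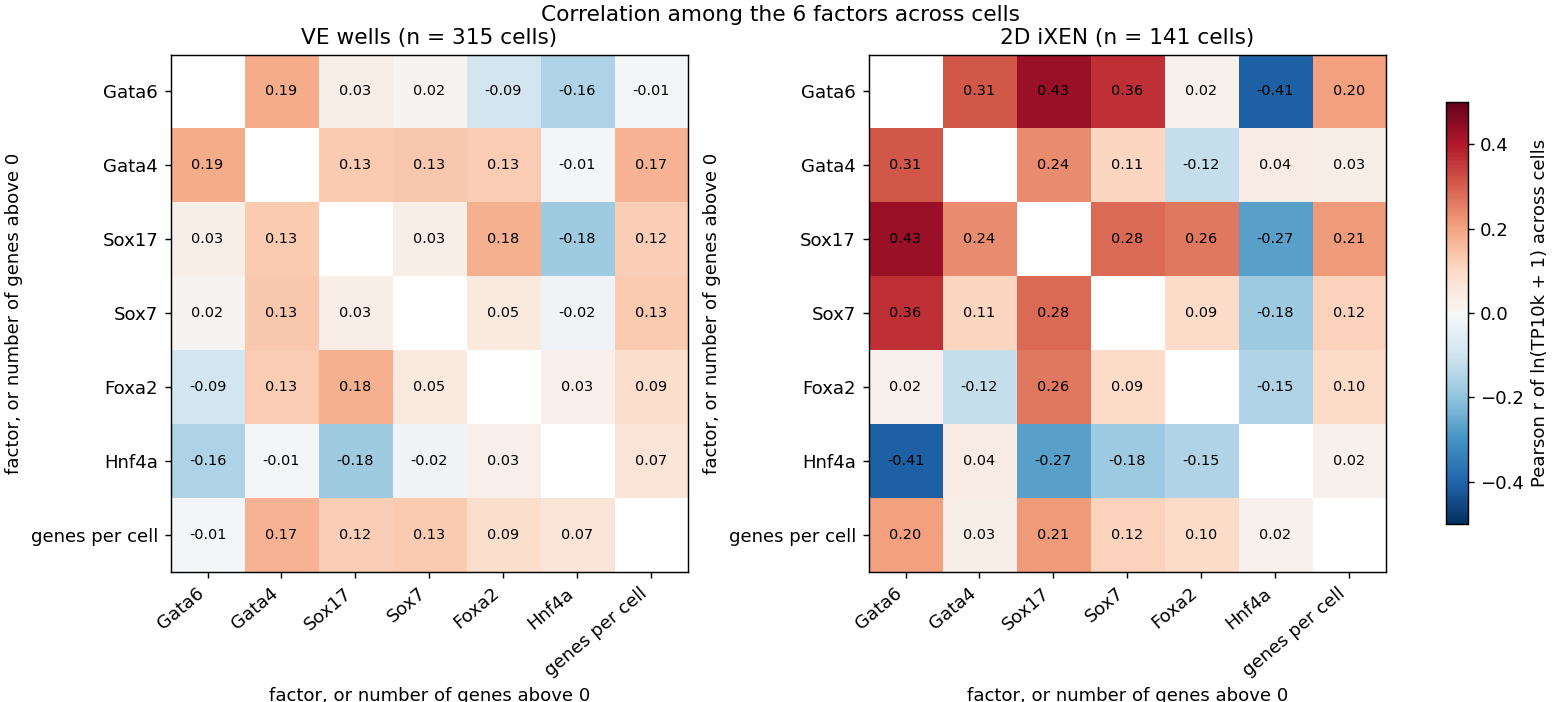
Pearson r of ln(TP10k + 1) between the 6 factors, and with the number of genes above 0 in the cell, across the kept VE wells (left) and iXEN cells (right); colours run from -0.5 to 0.5 and each cell prints its r. Gata6, Sox17 and Sox7 have r of 0.28 to 0.43 with each other in iXEN, and Hnf4a has negative r with Gata6 and Sox17 in both panels.

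The genes whose pattern was most like each factor were taken among 7904 genes found in at least 25% of VE wells, leaving out the 6 factors themselves. Likeness was the Pearson r of ln(TP10k + 1) over the VE wells, and the r in iXEN is given beside it. For Gata6 the 5 genes were Klf4 (r = 0.29, 0.14 in iXEN), Klf5 (0.29, 0.39), the laminin chain Lama1 (0.28, 0.48), Tpt1 (0.27, 0.16) and the laminin chain Lamc1 (0.26, 0.49). For Gata4 they were the collagen IV chain Col4a2 (0.38, 0.11), the collagen chaperone Serpinh1 (0.37, 0.13), Sparc (0.37, 0.15), Hs3st1 (0.34, 0.23) and Lamp1 (0.34, 0.01). For Sox17 they were the fatty acid-binding protein Fabp3 (0.32, 0.37), Tpm4 (0.27, 0.38), Col4a2 (0.27, 0.34), the tetraspanin Cd9 (0.26, 0.47) and Cmtm7 (0.26, 0.32).

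For Sox7 the 5 genes were Tyw5 (0.30, 0.05 in iXEN), the amino acid transporter Slc7a1 (0.29, 0.44), Snx18 (0.27, 0.14), Eif2b2 (0.24, -0.03) and Ddx52 (0.24, 0.10). For Foxa2 they were S100g (0.28, 0.05), Tmsb4x (0.26, 0.07), Arpin (0.23, 0.00043), Pigu (0.22, 0.20) and B2m (0.22, -0.01), with r over the plates from -0.02 to 0.37 for Tmsb4x, from -0.02 to 0.26 for B2m and from 0.05 to 0.31 for S100g. For Hnf4a they were Tmem37 (0.42, 0.43), Amot (0.40, 0.36), the glypican Gpc3 (0.34, 0.29), Sephs2 (0.33, 0.44) and the cathepsin Ctsh (0.31, 0.26). All 5 genes of Hnf4a and all 5 of Sox17 had r of 0.26 to 0.47 in iXEN, whereas those of Foxa2 did not exceed 0.20 and those of Gata4 did not exceed 0.23. No r over all genes in iXEN stands beside these. The plates also differed for other factors, with r from 0.13 to 0.51 for Lamp1 with Gata4 and from 0.15 to 0.61 for Amot with Hnf4a.

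Pou5f1, which the VE wells still held, set the factors apart from each other. In the 29 VE wells without Pou5f1 the mean of Gata6 was 0.550 TP10k, against 0.845 TP10k in those with it, and Sox7 was 0.463 against 1.06 TP10k. Hnf4a went the other way, at 0.533 TP10k without and 0.186 TP10k with Pou5f1. In iXEN the order was the same for these 3 factors, with Gata6 at 0.341 TP10k in the 27 cells without and 0.687 TP10k in the cells with Pou5f1, Sox7 at 0.633 and 0.988 TP10k, and Hnf4a at 0.361 and 0.220 TP10k. Sox17 was also lower without Pou5f1 in both groups, at 1.47 against 1.72 TP10k in VE wells and 1.87 against 2.91 TP10k in iXEN. For Gata4 and Foxa2 the order was not the same in both groups. Gata4 was at 1.72 TP10k without and 3.02 TP10k with Pou5f1 in VE wells but at 2.62 and 2.57 TP10k in iXEN, and Foxa2 was at 0.330 and 0.418 TP10k in VE wells but at 0.694 and 0.653 TP10k in iXEN. The wells without Pou5f1 had fewer genes, with medians of 4784 against 5437 in VE wells and 8213 against 8876 in iXEN. The 4 VE wells that went against their block were not left out here, and their part in these differences was not tested. Gata4 was found in 89.7% of the VE wells without and 99% of those with Pou5f1. Nanog and Sox2 were looked at in the same way, and Pou5f1 was singled out after the values were seen. Nanog, found in 24.8% of VE wells, left Gata6 at 0.783 TP10k with and 0.830 TP10k without it, and in iXEN the order was the other, at 0.672 and 0.538 TP10k.

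Gata4 in the ExE wells was set beside the markers of the 3 lineages in the wells that did not go against their block, a choice made with some of the same markers. Of these, 76 held Gata4 as the only 1 of the 6 factors, 22 held Gata6 alone, 13 held Gata6 with Gata4, and 48.6% held none. The share with Gata4 was 25.3%, 39.4% and 49.5% in the lower, middle and upper tercile by number of genes. No well held Gata6, Gata4 and Sox17 together, which allows a share of up to 1.06% (3 counts), whereas 11 of the 47 ExE wells with more visceral endoderm markers did. Gata4 could be compared between wells with and without a marker for 18 markers, and the wells with the marker had the higher median number of genes for all 18. Its share was higher with the marker for 2 of 8 trophoblast markers, 3 of 5 endoderm markers and 1 of 5 epiblast markers, and lower for the others. On plates 3, 4 and 5, Gata4 was found in 52.4%, 30.3% and 29.3% of the wells that did not go against their block. The gaps were not compared within plates. The intervals, which cover counting error only, lay apart for 6 of the 18, which are given next. Gata4 was found in 43.4% (36.5 to 50.5%) of wells with Cdx2, a factor of the 5-Factor transgene set, and in 24.1% (15.1 to 35%) of wells without it, at medians of 5686 and 4883 genes. For the other transgene factors the shares with and without the gene were 42.9% and 29.9% for Gata3, 37.3% and 39.6% for Tfap2c, 35% and 43.3% for Eomes and 36.9% and 40% for Ets2. Gata4 was found in 19.3% (12.3 to 27.9%) of wells with Plet1 and 49.7% (42.1 to 57.4%) of those without, in 24.5% (16.5 to 34%) with Bmp4 and 45.6% (38.2 to 53.1%) without, in 15.7% (9.45 to 24%) with Utf1 and 51.7% (44.1 to 59.3%) without, and in 27% (19 to 36.3%) with Dppa5a and 45.1% (37.5 to 52.8%) without. These 4 gaps run opposite to the order of the numbers of genes. Among the endoderm markers, Lama1, a laminin chain, had Gata4 in 71.4% (55.4 to 84.3%) of the 42 wells with it and 32.2% (26.4 to 38.5%) of the rest. The shares with and without were 48.5% and 32% for Lrp2 and 52.2% and 36.8% for Srgn, but 22.7% and 39.3% for Amn and 34.6% and 38.4% for Dab2. For Gata6 the largest gap was with Pou5f1, at 29% (14.2 to 48%) of 31 wells with it and 11.9% (8.15 to 16.5%) of the rest, and these intervals overlap.

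Close relatives of the factors were mostly found in few endoderm cells. In VE wells Gata1, Gata2, Gata3 and Gata5 were found in 0.952%, 0.317%, 4.44% and 1.59% of cells, Foxa1 in 0.635% and Hnf4g in 0.317%, and Sox18, the other SoxF gene, was listed at 0 in VE wells and in iXEN. Foxa3 was the exception, in 9.84% of VE wells and 39% of iXEN cells at 0.0411 and 0.0818 TP10k. In ExE wells the GATA family was represented by Gata3, a transgene of the 5-Factor line (53.5% of cells, 0.819 TP10k), Gata1 (26.6%, 0.395 TP10k) and Gata2 (16.4%, 0.188 TP10k) together with Gata4 and Gata6 (15.3%, 0.0618 TP10k). Without the wells that went against their block Gata3, Gata1 and Gata2 were at 62.3% and 0.975 TP10k, 29.2% and 0.449 TP10k, and 19.7% and 0.230 TP10k. In iTSC, Gata3 (0.519 TP10k) and Gata1 (0.463 TP10k) were present and Gata4 was at 0.0107 TP10k.

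**Figure D5:**
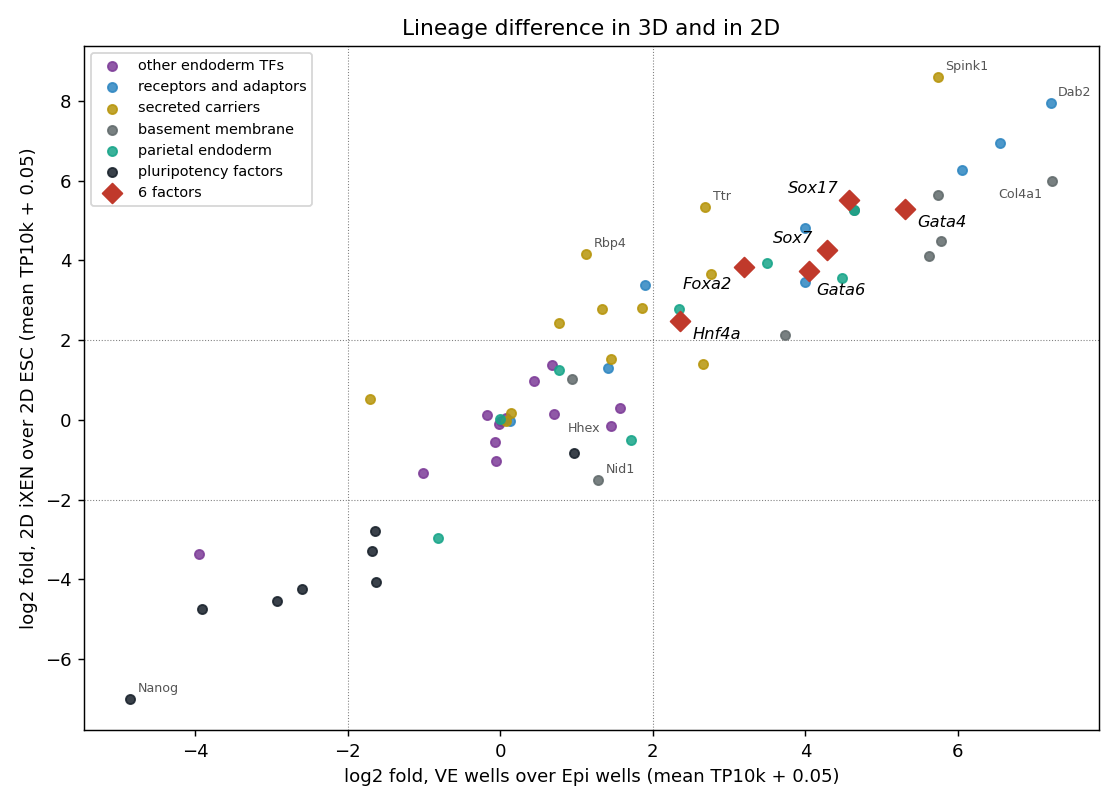
Log2 fold of mean TP10k + 0.05 in VE wells over Epi wells (x axis) and in 2D iXEN over 2D ESC (y axis) for the genes of 6 lists (dots) and the 6 factors (diamonds); dotted lines mark a 4-fold difference. All 6 diamonds lie above 4-fold on both axes, while Ttr and Rbp4, each found in under 10% of VE wells, lie higher in 2D (log2 folds of 5.33 and 4.16) than in 3D (2.69 and 1.12).

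Other genes of the endoderm programme were taken from lists chosen with earlier results of these data known. Of 13 further transcription factors of endoderm reported here, 5 were found often enough to compare VE wells with Epi wells and 9 to compare iXEN with ESC. Otx2 was at least 4-fold lower in both, at -3.95 and -3.36, beside 2.41% of all genes compared in 3D and 1.82% in 2D. Hhex, which the paper names with Otx2 and Lhx1 among anterior visceral endoderm factors, was found in 44.1% of VE wells at 0.307 TP10k. It was at 0.120 TP10k in iXEN (log2 fold 1.07 for VE wells over iXEN), where it was no higher than in ESC (0.140 TP10k). Otx2 was found in 0.317% and Lhx1 in 9.21% of VE wells. Gsc was listed at 0 in VE wells, and Eomes was found in 23.8% of them.

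Of 8 receptors and adaptors, 5 were at least 4-fold higher in VE wells than in Epi wells and 6 in iXEN than in ESC, beside 2.88% and 3.3% of all genes compared. Dab2, an endocytic adaptor, led in 3D with a log2 fold of 7.21. The 5 called in 3D, Amn, Cubn, Dab2, Lrp2 and Pdgfra, were all in the visceral endoderm panel used to check the block names. Their count therefore repeats that check. The listed genes outside the panel, Fgfr3 (1.90), Fgfr4 (1.42) and Il6st (0.13), were not called in 3D, and Fgfr3 (3.38) was called in 2D. Of 8 basement membrane genes, 6 were called in each, and over all 8 the folds in 3D ran from Nid2 at 0.94 to Col4a1 at 7.24. Lama1, called in both, was in that panel too. Of 8 parietal endoderm genes, 4 of the 6 compared in 3D and 4 of the 7 compared in 2D were called, with Lamb1 (4.63, also in the basement membrane list) and Tfpi (4.48) the highest in 3D, and Vim was lower at -0.81 in 3D and -2.97 in 2D. The same 2.88% and 3.3% of all genes stand beside the counts of each of these 3 lists. Medians over their compared genes were 3.99, 5.13 and 2.92 in 3D, beside -0.05 over all genes, and 4.13, 4.30 and 2.77 in 2D, beside -0.01.

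The secreted carriers, among them the transport proteins that visceral endoderm supplies to the embryo, parted from the factors between VE wells and iXEN. Of the 12 genes of this list, 5 could be compared in 3D and 2 were at least 4-fold higher in VE wells. These were Spink1 (5.74), a secreted protease inhibitor and not a carrier, and Apom (2.76), and both reached 10% of cells in VE wells only. Ttr (2.69, found in 9.84% of VE wells) and Apoc2 (2.66, 6.98%) also lay above 4-fold but were found in too few cells to be compared. The other listed genes left out for this reason did not. In 2D 7 of 10 were called, with Spink1 at 8.6 and Ttr, the carrier of thyroid hormone, at 5.33. Of those called, Spink1, Ttr, Apoa1 and Apob reached the 10% of cells needed for a comparison in iXEN only. Over all genes compared, 2.88% were called in 3D and 3.3% in 2D. Directly, 6 of 10 listed genes were at least 2-fold lower in VE wells than in iXEN, beside 2.38% of all genes, and none was higher, beside 1.51%. The median log2 fold of the 10 was -1.66 beside 0.01 over all genes. Of the 6, Ttr, Rbp4, Apoc2 and Apoa2 were each found in under 10% of VE wells and were compared only through iXEN. So were Apoa1 and Apob, and the count and the median therefore favour iXEN. The others called, Spink1 and Apom, were found in 67.3% and 32.4% of VE wells, at log2 folds of -2.85 and -2.01. Rbp4, the carrier of retinol, was at 0.135 TP10k in VE wells and 2.03 TP10k in iXEN, and Ttr at 0.272 and 2.04 TP10k. Hnf4a itself differed between these groups by -0.15, and Foxa2 by -0.63. VE wells and iXEN also differed in depth, culture medium, co-culture and plate. These cannot be told apart here, and the part of depth in the carrier difference was not tested.

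The pluripotency factors lay on the other side. Of 8, 4 were at least 4-fold lower in VE wells than in Epi wells and 7 in iXEN than in ESC, beside the same 2.41% and 1.82% of all genes, with medians of -2.14 and -4.16. Nanog had the largest difference, at -4.85 and -7.01, and Sox2 followed in 3D at -3.91. Pou5f1 was lower by -1.63 in VE wells, at 4.53 TP10k against 14.2 TP10k in Epi wells. In iXEN it was lower by -4.07, at 1.60 TP10k against 27.8 TP10k in ESC. The log2 fold of VE wells over iXEN was 1.47. Tbx3 was not lower in VE wells, at 0.97.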

How the data were processed

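Cells had been sorted into 384-well plates and sequenced by SMART-seq2. The authors deposited 1 table of TPM for 20999 genes and 1931 wells, made per their methods with bcl2fastq 2.20, kallisto on GRCm38 with Gencode vM16, and tximport. Mitochondrial, ribosomal and pseudogenes had been filtered out by the authors, and the deposited TPM of the kept cells sum to between 108692 and 782286. SMART-seq2 keeps no strand, and antisense transcripts that overlap exons of Gata6 and Sox17 in Gencode vM21 cannot be told apart from them by strand.

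Wells were grouped by the plate, row and column in their titles. The 6 members, the panels and the lists were chosen with earlier results of these data known. TPM were divided by each cell's total (TP10k, 10000 units). Cells with under 2500 genes above 0 were left out, wells without any value included, which kept 315 of 383 VE wells, 353 of 384 ExE wells, 314 of 382 Epi wells, 141 of 182 iXEN, 141 of 283 iTSC and 142 of 317 ESC. Folds were taken on mean TP10k + 0.05 for genes found in at least 10% of either group, and a count test was not used, as TPM are not counts. Genes named by likeness were the 5 with the highest r for each member found in at least 25% of VE wells. A fold call or likeness has no replicate test, because 1 pool or culture stood behind each group. Doublets were not called, since wells were sorted singly. Calls and ranking were tested on simulated data. Planted changes lay well above 4-fold, in genes that were not low, and planted likenesses were stronger than the r reported here. Weaker changes and likenesses were not tested in this way. Positions are from Gencode vM21 (GRCm38), and promoter sequences from RefSeq (GRCm38.p6). Promoters of Gata4, Sox17, Sox7 and Gata6 are not shown. Of the list of further transcription factors, 1 gene is not reported here. Python 3.11.15, numpy 2.4.6, pandas 2.3.3 and scipy 1.17.1 were used. In all, 14 alternative settings were tried, covering the minimum of genes, the level at which a gene is found, scale, mean, pseudocount, gene filter, plates left out, wells against their block and a band of depth.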

Additional observations from a re-analysis of the deposited data

Results flagged for a closer look

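For Sox17, Foxa2 and Hnf4a, the difference between 3D and 2D had opposite signs in the endoderm and trophoblast lineages on every plate, and the difference between lineages was not tested. VE wells minus iXEN was -1.01 TP10k for Sox17, -0.251 TP10k for Foxa2 and -0.0291 TP10k for Hnf4a. ExE wells minus iTSC was 0.0487 TP10k for Sox17, 0.148 TP10k for Foxa2 and 0.0305 TP10k for Hnf4a. Without the wells that went against their block, ExE wells minus iTSC ran from -2.14e-04 to 0.0181 TP10k over the plates for Sox17, so that its sign no longer held, and from 0.0334 to 0.0602 TP10k for Foxa2 and 0.00955 to 0.0175 TP10k for Hnf4a. Gata4 was found in 13 of the 68 VE-block wells that were left out for having under 2500 genes (19.1%, 10.6 to 30.5%, at a median of 24 genes), and in none of 67 such wells of the Epi block (which allows a share of up to 4.48%, 3 counts).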

How the results depend on the processing

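Under the 14 alternatives no log2 fold of a member changed sign, and 58 of these values moved by more than 1 SD between plates (in 2D, by more than 1.5-fold). The share of compared genes past the fold depended on the pseudocount. With 0.01 it was 5.21% for VE over Epi wells, 2.5% for VE over ExE wells, 6.02% for iXEN over ESC, 3.45% for iXEN over iTSC, and 3.07% higher and 5.64% lower in VE wells than iXEN. With 0.5 these were 0.647%, 0.341%, 0.731%, 0.483%, 0.196% and 0.482%. With means of ln(TP10k + 1), 0.71% were higher in VE wells than iXEN. With a pseudocount of 0.5, Gata4 (log2 fold 2.70) and Sox17 (2.07) were still 4-fold higher over Epi wells, and Gata6 (1.39), Sox7 (1.58), Foxa2 (0.86) and Hnf4a (0.52) were not. Sox17 alone was so over ExE wells (2.0), and Gata4 and Sox17 were in both 2D comparisons. Hnf4a over iTSC was 1.80 among cells with 5000 to 8500 genes. With 1 plate left out, the shares of genes ran from 2.89% to 3.23% over Epi wells, from 1.26% to 1.52% over ExE wells, and from 1.45% to 1.78% higher and 2.33% to 2.88% lower than iXEN. The share of VE wells with Gata6, Gata4 and Sox17 was 86.8% among cells with 5000 to 8500 genes, and 76% to 81.7% with 1 plate left out. No paired analysis was possible because replicate numbers name single wells and no test was run, and plates 3, 4 and 5, which each hold all 3 blocks, were compared only as folds within a plate. With 1 pool and 1 culture per group, the spread between cultures is not known.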
